A study of Rattus norvegicus with 28 samples.

Results

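The mu and delta opioid receptors, encoded by Oprm1 and Oprd1, were followed across the brain and spinal cord of adult male rats that had received 1 hindpaw injection as newborns. Each receptor had 1 feature (an oligonucleotide probe with its own number in the deposited table) on a custom array: feature 54 for Oprd1 and feature 154 for Oprm1. These 2 features were taken as every feature that the platform annotation assigned to either gene, out of 228 features and 156 named genes. Both receptors couple to inhibitory G proteins and damp the firing of neurons and their release of transmitter. The mu receptor is the main target of morphine and of beta-endorphin, and the delta receptor is a main target of the enkephalins. The periaqueductal grey (PAG) drives the rostral ventromedial medulla (RVM), which projects to the dorsal horn of the spinal cord, and opioids act at each of these stations to control incoming pain signals.

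The series held 28 arrays in 6 groups. Pups were injected on postnatal day 3 in the left hindpaw with 0.25% carrageenan, a seaweed polysaccharide that inflames tissue, dissolved in saline at 1 µl/g, or, in the saline groups, with saline. They were weaned on day 21 and grown until day 59. The groups were PAG after carrageenan (5 arrays), PAG after saline (5), RVM after carrageenan (5), RVM after saline (4), left lumbar dorsal horn (LDH) after carrageenan (5) and right LDH after carrageenan (4). The left LDH lies on the side of the injected paw, and no saline group of the LDH was analysed here. Every array carried RNA of an injected animal in 1 channel and, in the other, the same region's RNA from an uninjected rat. The strain, whether each array stands for a separate animal, whether left and right LDH came from the same animals and whether controls were shared are not given in the sources used here. The p-values therefore reflect only how far arrays of a group scatter, and that scatter may be technical.

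All values below are deposited log2 ratios, read here as injected over uninjected RNA. The table does not say which channel is on top, and the reading rests only on the custom of setting the experimental sample over its control. It was not tested, so every lower or higher, between groups too, every rank from the lowest and every share below 0 would turn round with the ratio, while sizes, p-values and overlaps would stay. A negative value means a lower signal in the injected animal than in its control. Entries of exactly 0 were read as missing measurements. The dyes were never swapped, so a dye effect and an effect of injection cannot be told apart in a ratio against the uninjected control. In bulk tissue, fewer cells that express a receptor and less receptor RNA per cell cannot be told apart either. A ratio holds no level, so the labelled tissues could not be checked by marker levels. The arrays held no feature for the listed markers of neurons in general, astrocytes, microglia, oligodendrocytes or cholinergic neurons, and 1 listed gene each for serotonergic neurons (Slc6a4) and noradrenergic neurons (Slc6a2). The arrays measured between 7 and 195 features each. The 4 arrays that measured fewer than 40 features measured neither receptor. The number measured differed by group, at 148.8 ± 36.9 in PAG carrageenan against 80.8 ± 26.8 in PAG saline (SD, n = 5 each). It was 69.8 ± 39.8 in RVM carrageenan (n = 5) against 145.5 ± 38.9 in RVM saline (n = 4), and 104.4 ± 38.7 in left LDH (n = 5) against 54.25 ± 38.8 in right LDH (n = 4).

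Oprd1 was below the uninjected control on every PAG array of carrageenan-treated rats and was measured on no PAG array of saline-treated rats. The 5 PAG carrageenan arrays gave log2 ratios of -3.183, -2.678, -2.286, -1.534 and -1.921 in the order of array number. All of them lay well below 0, with the shallowest still at 0.345 of the control's signal. Their mean was -2.32 ± 0.64 (SD, n = 5; 95% interval -3.02 to -1.62), which is a 4.99-fold lower signal than in the uninjected PAG, or a mean of 2.32 and a 4.99-fold higher signal if the ratio is turned. This was larger than the spread between arrays (limma against 0, Benjamini-Hochberg adjusted p = 0.0379 over the 155 features measured on at least 3 of these arrays). Only the PAG carrageenan arrays decided which features entered, and this fit was chosen with earlier results of these data known. Where both PAG groups had to measure a feature, Oprd1 could not be tested. Oprd1 was the only one of the 155 to pass, so 0.645% of the features tested were called in this comparison, while 32 had an unadjusted p below 0.05. An exact two-sided sign-flip permutation test of the 5 values gave p = 0.0625, the smallest it can give with 5 arrays. The call did not withstand the loss of any array: without each of the 5 in turn the mean stayed between -2.52 and -2.10, but the adjusted p lay between 0.0551 and 0.194. Quantile normalization between arrays also ended the call, with a mean of -1.90 and an adjusted p of 0.137.

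**Figure D1:**
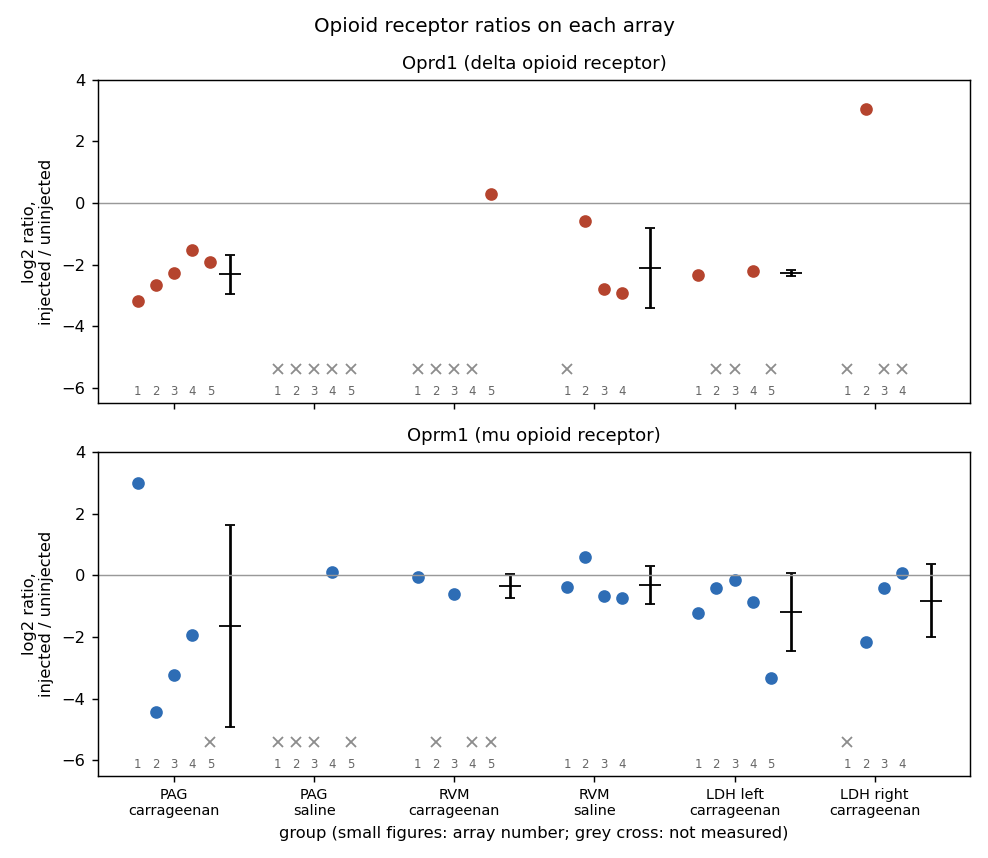
Log2 ratio of injected over uninjected signal (vertical axis) for Oprd1 (top) and Oprm1 (bottom) on each of the 28 arrays, by group along the horizontal axis; dots are arrays, the small digits are array numbers, grey crosses mark arrays that did not measure the feature, and bars give mean ± SD where at least 2 arrays measured it. All 5 PAG carrageenan arrays sit below 0 for Oprd1, while the 4 that measured Oprm1 run between -4.422 and 3.011.

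In PAG carrageenan Oprd1 combined a low mean with a moderate spread. Its mean was the 6th lowest of the 155 features (the 6th highest with the ratio turned) and its p was the smallest. Its SD of 0.642 was below the median SD of 0.798 over all features tested, and 36.1% of the features had a smaller SD. On the 5 arrays, between 2.2% and 13.0% of the measured features had a lower ratio than Oprd1. The features with the next smallest p-values all had an adjusted p of 0.136. Among them were Grin2c, an NMDA receptor subunit, with a mean of -1.74, and Il13, a cytokine, with a mean of 1.31.

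Markers of particular neurons also had means away from 0 in the group of arrays with the Oprd1 call, and none passed. The serotonin transporter Slc6a4, the serotonergic marker on the array, averaged 0.88 ± 0.39 in PAG carrageenan (SD, n = 4; limma adjusted p = 0.149), against 0.48 ± 0.19 in PAG saline (n = 3; limma adjusted p = 0.282). The noradrenaline transporter Slc6a2 averaged -1.38 ± 1.04 on feature 203 (n = 5; limma adjusted p = 0.149) and 0.29 ± 1.20 on feature 204 (n = 4; limma adjusted p = 0.726) in PAG carrageenan, so its 2 features disagreed in sign. Of the peptide genes that mark dorsal horn neurons, 7 of 10 testable features had means above 0 in PAG carrageenan and 3 below. Their median was 0.17 against 0.10 over all 155 features, of which 89 had means above 0. Peptide features above 0 with an unadjusted p below 0.05 were the substance P precursor Tac1 feature 55, at 0.70 ± 0.46 (n = 5), and the neurotensin precursor Nts feature 184, at 0.57 ± 0.30 (n = 5; limma adjusted p = 0.149 for both). Below 0 with an unadjusted p below 0.05 was the enkephalin precursor Penk feature 197, at -1.22 ± 0.64 (n = 3; limma adjusted p = 0.179). Other features of these genes differed. Tac1 features 28 and 79 averaged -0.18 and 0.14, Nts feature 183 -0.17, and Penk features 194 and 196 0.45 and 0.14. Slc6a4 and Slc6a2 feature 203 also had an unadjusted p below 0.05. The part of any of these features in the Oprd1 result was not tested.

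**Figure D2:**
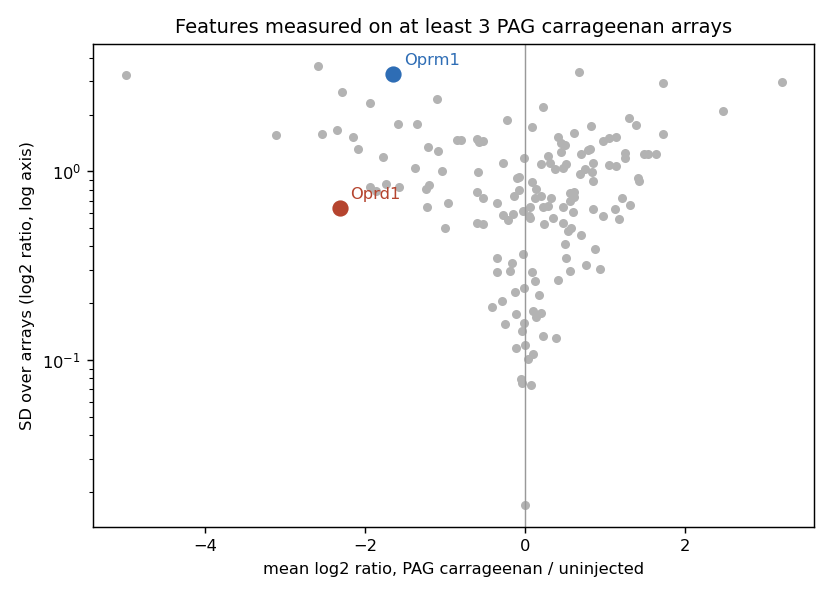
Mean log2 ratio over the PAG carrageenan arrays (horizontal axis) against the SD over those arrays (vertical log axis) for the 155 features measured on at least 3 of them, one dot each. Oprd1 (red) lies at a mean of -2.32 with an SD of 0.642, and Oprm1 (blue) at -1.65 with an SD of 3.27, near the top of the plot.

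Whether carrageenan and saline differed in the PAG could not be tested on measured Oprd1 ratios, since none of the 5 PAG saline arrays measured it. Counting arrays instead, 5 of 5 PAG carrageenan arrays measured Oprd1 against 0 of 5 PAG saline arrays (exact permutation p = 0.00794, the smallest that 5 against 5 arrays can give; adjusted p = 0.362 over 228 features). That count was tested after its values had been seen. It stands beside the difference in how many features the arrays measured at all: 168 features were measured on more PAG carrageenan than PAG saline arrays and 10 on fewer. In all, 5 features, or 2.19% of the 228, were measured on every PAG carrageenan array and on no PAG saline array. Besides Oprd1 these were Gabra3 and Gabra6, both GABA-A receptor subunits, the cytokine Il16 and the neuropeptide precursor Vip. Gabra3 and Gabra6 were also below 0 on all 5 arrays, with means of -2.54 and -1.93, while Il16 and Vip had values on both sides of 0. PAG carrageenan array 5 measured 86 features, against 90 to 95 on PAG saline arrays 1 to 4. It held a value for Oprd1 and none for Oprm1. What the number of measured features contributes to the count was not tested.

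If the missing values were read as ratios of 0, Oprd1 differed by -2.32 log2 units between PAG carrageenan and PAG saline (95% interval -2.95 to -1.69; limma adjusted p = 0.00279 over all features so treated). That reading gives every PAG saline array the same value with no spread, so its interval is too narrow. Among the features that both PAG groups measured on at least 3 arrays, 0% of 78 passed in limma, 10 had an unadjusted p below 0.05 and the smallest adjusted p was 0.333. None passed by the exact permutation test either, where 12 had an unadjusted p below 0.05.

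**Figure D3:**
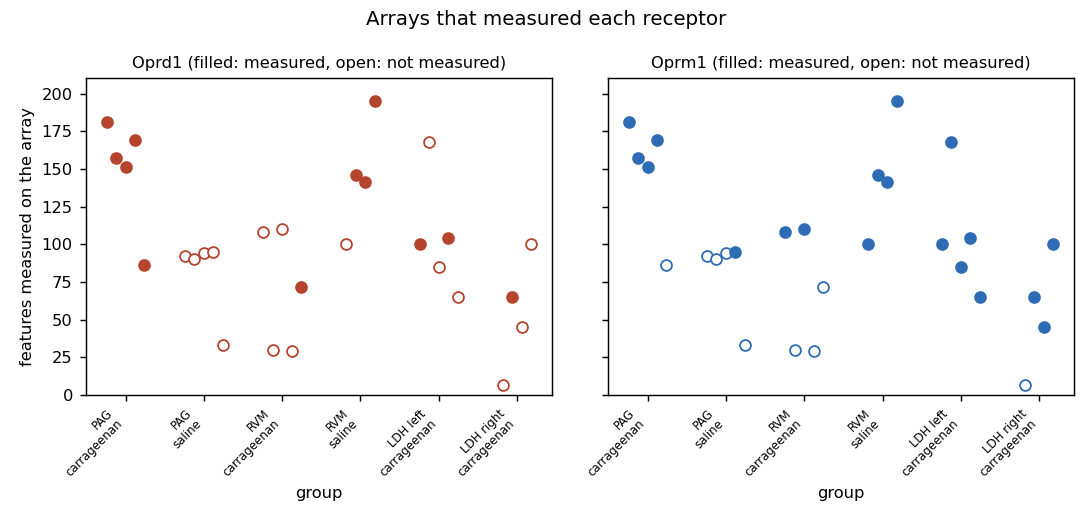
Number of features measured on an array (vertical axis) for the 28 arrays by group (horizontal axis), with filled dots where the array measured Oprd1 (left) or Oprm1 (right) and open dots where it did not. The 12 arrays that measured Oprd1 held 65 to 195 features, and the 16 that did not held 7 to 168.

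In the RVM the low Oprd1 ratios were on saline arrays. RVM carrageenan array 5 was the only one of 5 to measure the receptor, at 0.279, against -0.596, -2.803 and -2.934 on RVM saline arrays 2, 3 and 4. The single carrageenan value lay above all 3 saline values, and how many other features separate in this way is not given here. RVM saline averaged -2.11 ± 1.31 (SD, n = 3; 95% interval -3.98 to -0.24), 4.32-fold below the uninjected RVM, and this did not pass (limma adjusted p = 0.229; exact sign-flip permutation p = 0.25, the smallest possible with 3 arrays). With the arrays of all 6 groups in 1 fit, the same mean passed with a limma adjusted p of 0.042, and 6 of 127 features passed in that fit. In the fit of the RVM saline arrays alone 0.787% of 127 features were called, namely Grin3a, an NMDA receptor subunit, at -4.37. The difference of 2.39 between RVM carrageenan and RVM saline rests on 1 carrageenan array and was not tested. With missing values read as 0 it was 1.64 (95% interval 0.24 to 3.04; limma adjusted p = 0.378). That reading gives 4 of 5 RVM carrageenan arrays the same value, so its interval does not show their spread. By count, 1 of 5 RVM carrageenan arrays measured Oprd1 against 3 of 4 RVM saline arrays (exact permutation p = 0.333). Of all 228 features, 189 were measured on a larger share of RVM saline than RVM carrageenan arrays and 11 on a smaller share.

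In the dorsal horn, Oprd1 gave 2 low values on the left and 1 high value on the right. Left LDH arrays 1 and 4 read -2.348 and -2.21, against 3.035 on right LDH array 2, and the other 6 LDH arrays did not measure it. The right value is the highest Oprd1 ratio of the series, and 95.4% of the features on that array were lower. The difference of -5.31 between the sides rests on 3 arrays and was not tested. With missing values read as 0 the difference, left minus right, was -1.67 (95% interval -3.67 to 0.33; limma adjusted p = 0.696). That reading gives the 6 LDH arrays without a value the same ratio, so its interval does not show their spread. The counts of 2 of 5 left and 1 of 4 right arrays gave an exact permutation p of 1.0. Of all 228 features, 160 were measured on a larger share of left than right arrays and 24 on a smaller share.

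Ordered by group mean, Oprd1 was lowest in PAG carrageenan at -2.32, followed by left LDH at -2.28 (n = 2) and RVM saline at -2.11 (n = 3). The ranges of these 3 groups overlapped, so their order is not larger than their spread. The single arrays of RVM carrageenan at 0.279 and right LDH at 3.035 lay above all other values. Between the PAG and the RVM after carrageenan the measured values differed by -2.60 log2 units, lower in the PAG, with 5 arrays against 1, and this was not tested. With missing values read as 0 the difference was -2.38 (limma adjusted p = 0.00254). That reading gives 4 of 5 RVM arrays the same value with no spread, so its p is too small. Over the series, Oprd1 was measured on 12 arrays, of which 10 (83.3%) lay below 0, with a median of -2.25. The same 10 would lie above 0 with the ratio turned. Of all 2818 measured values 49.3% lay below 0. Among the 121 features measured on at least 10 arrays, 12, Oprd1 included, had at least its share of values below 0.

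Oprm1 also lay mostly below the uninjected control, but no group of arrays differed from 0 by more than its spread. In PAG carrageenan, arrays 1 to 4 gave 3.011, -4.422, -3.245 and -1.931, and array 5 did not measure it. Array 1 was high, with 97.8% of its features lower, while arrays 2 and 3 had only 1.9% and 4.0% of their features below Oprm1. The mean was -1.65 ± 3.27 (SD, n = 4; 95% interval -5.19 to 1.90; limma adjusted p = 0.473; exact sign-flip permutation p = 0.375, smallest possible 0.125). Its SD ranked 153rd of 155, counted from the lowest. The mean turned on single arrays: it was -3.20 without array 1 (adjusted p = 0.201), -0.72 without array 2 and -1.11 without array 3. Quantile normalization gave -0.89 (adjusted p = 0.621).

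PAG saline array 4 was the only one of its 5 arrays to measure Oprm1, at 0.124, a value inside the PAG carrageenan range. Oprm1 was thus measured on 4 of 5 PAG carrageenan arrays and 1 of 5 PAG saline arrays (exact permutation p = 0.206). The difference could not be fitted on measured values, and with missing values read as 0 it was -1.34 (95% interval -4.08 to 1.40; limma adjusted p = 0.574). That reading gives 4 of 5 PAG saline arrays the same value, so its interval does not show their spread.

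In the RVM, no Oprm1 change from the control was shown in either group, with few values in each. It read -0.054 and -0.606 on RVM carrageenan arrays 1 and 3, against -0.388, 0.585, -0.677 and -0.74 on RVM saline arrays 1 to 4. The carrageenan values lay inside the saline range. The means were -0.33 ± 0.39 in RVM carrageenan (SD, n = 2) and -0.305 ± 0.613 in RVM saline (n = 4), a difference of -0.025 (exact permutation p = 0.933, smallest possible 0.133). RVM saline did not pass against 0 (95% interval -1.08 to 0.47; limma adjusted p = 0.565), and its mean was -0.60 without array 2, -0.18 without array 3 and -0.16 without array 4. The interval still holds a mean of -1, so the arrays do not show that RVM saline equalled its control. No feature passed between RVM carrageenan and RVM saline in limma (0% of 56; 4 with an unadjusted p below 0.05, and 1 by the exact permutation test). Between PAG and RVM after carrageenan, the Oprm1 means differed by -1.32 with 4 arrays against 2 (exact permutation p = 0.667, smallest possible 0.133), and 0% of the 59 features tested between those groups passed in limma (3 with an unadjusted p below 0.05, and 4 by the exact permutation test). After saline, the single PAG value of 0.124 lay inside the range of RVM saline, and 0% of the 72 features tested between those groups passed (7 with an unadjusted p below 0.05, and 5 by the exact permutation test). Whether the effect of carrageenan differed between PAG and RVM could be tested for neither receptor, and 0% of the 48 features that could be tested passed in limma (3 with an unadjusted p below 0.05).

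In the left dorsal horn, on the side of the injected paw, Oprm1 was below the control on all 5 arrays, at -1.232, -0.411, -0.142, -0.861 and -3.321 for arrays 1 to 5. Array 5 was far below the others and array 3 was near 0. The mean was -1.19 ± 1.26 (SD, n = 5; 95% interval -2.51 to 0.12), a 2.29-fold lower signal that did not pass (limma adjusted p = 0.514). The exact sign-flip permutation p was 0.0625, the smallest that 5 arrays can give. Without array 5 the mean was -0.66 (adjusted p = 0.569). It was the 6th lowest mean of 92 features, of which 0% passed and 9 had an unadjusted p below 0.05.

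Right LDH arrays 2, 3 and 4 gave Oprm1 ratios of -2.167, -0.409 and 0.09, and array 1, which measured 7 features, had none. Their mean was -0.83 ± 1.19 (SD, n = 3; 95% interval -2.58 to 0.93; limma adjusted p = 0.517), among 31 features of which 0% passed and 1 had an unadjusted p below 0.05. Left and right values overlapped. Left minus right was -0.36 (95% interval -2.24 to 1.51; limma adjusted p = 0.854; exact permutation p = 0.714, smallest possible 0.0357). Without left array 5 the difference changed sign, to 0.17 (adjusted p = 0.89). It also changed sign with the array number as a block, to 0.36 (limma adjusted p = 0.706), and by number, left minus right was 1.76 for arrays 2, 0.27 for arrays 3 and -0.95 for arrays 4. Whether equal numbers mark the same animal is not known. None of the 29 features tested between the sides passed (0%), and none had an unadjusted p below 0.05 in limma (1 by the exact permutation test). The interval still holds a left side lower or higher by more than 1 log2 unit, so the arrays do not show that the sides were alike.

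By group mean, the order of Oprm1 from the lowest was PAG carrageenan at -1.65, left LDH at -1.19, right LDH at -0.83, RVM carrageenan at -0.33, RVM saline at -0.305 and PAG saline at 0.124 (n = 1). Each neighbouring pair in this order overlapped. Over 19 arrays that measured it, 15 (78.9%) lay below 0, or above 0 with the ratio turned, with a median of -0.606 as deposited. Of the 121 features on at least 10 arrays, 20, Oprm1 included, had at least that share below 0. The 19 arrays held 45 to 195 features, and the 9 that did not measure it held 7 to 94.

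No positive correlation between the ratios of the receptors was seen from array to array, and 10 shared arrays are too few to exclude one. Of the 28 arrays 10 measured both, with Pearson's r = -0.174 and Spearman's rho = -0.345 between their log2 ratios, and r = -0.47 without the 2 arrays farthest from the median of Oprd1. These arrays share the groups and the uninjected reference, so the values are a description. Both receptors were below 0 on 7 of the 10, opposite in sign on 3 and above 0 together on none. On PAG carrageenan array 1, Oprd1 had its lowest ratio of the series (-3.183) and Oprm1 its highest (3.011). A further 11 arrays measured 1 of the receptors and 7 measured neither.

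The features whose ratios ran most alike with each receptor, over at least 8 shared arrays, were compared with and without the 2 arrays farthest from the receptor's median, and only feature 146 stayed alike without them. For Oprd1 these were Il13 (r = 0.919, rho = 0.545, 11 arrays), the histamine receptor Hrh4 (r = 0.795, rho = 0.476, 8 arrays) and the GABA-A subunit Gabre (r = 0.704, rho = 0.264, 11 arrays), among 99 candidates with a median r of -0.0255. Without the 2 arrays farthest from the median their r was 0.071, -0.279 and -0.207. For Oprm1 the closest was the unnamed feature 146 (r = 0.793, rho = 0.833, 8 arrays), which kept r = 0.925 without the 2 farthest arrays. Next were the histamine receptor Hrh1 (r = 0.658, rho = 0.05, 9 arrays) and Penk feature 194, of the enkephalin precursor (r = 0.509, rho = 0.379, 18 arrays), with r = 0.0165 and 0.0719 without those arrays. The median over 140 candidates was 0.0161.

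The other opioid genes on the array were the kappa receptor Oprk1, the nociceptin receptor Oprl1 and the peptide precursors Penk (enkephalins), Pdyn (dynorphins) and Pomc (beta-endorphin), with 10 features for 5 genes. In PAG carrageenan, where both Oprd1 and Oprm1 had means below 0, 7 of the 8 testable features of these genes had means above 0. Of all 155 features, 89 had means above 0, and several of the 8 read the same gene. The median of the 8 was 0.416, against 0.102 over all 155 features, and none of the 8 passed. Pdyn was above 0 on all 4 PAG carrageenan arrays that measured it, at 0.97 ± 0.58 (SD, n = 4; limma adjusted p = 0.149). It was also above 0 on all 5 PAG saline arrays, at 0.49 ± 0.22 (n = 5; adjusted p = 0.174). Penk feature 197 was the exception in PAG carrageenan, at -1.22 ± 0.64 (n = 3; adjusted p = 0.179), while the same gene's features 194 and 196 had means of 0.45 and 0.14, so its probes disagreed.

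**Figure D4:**
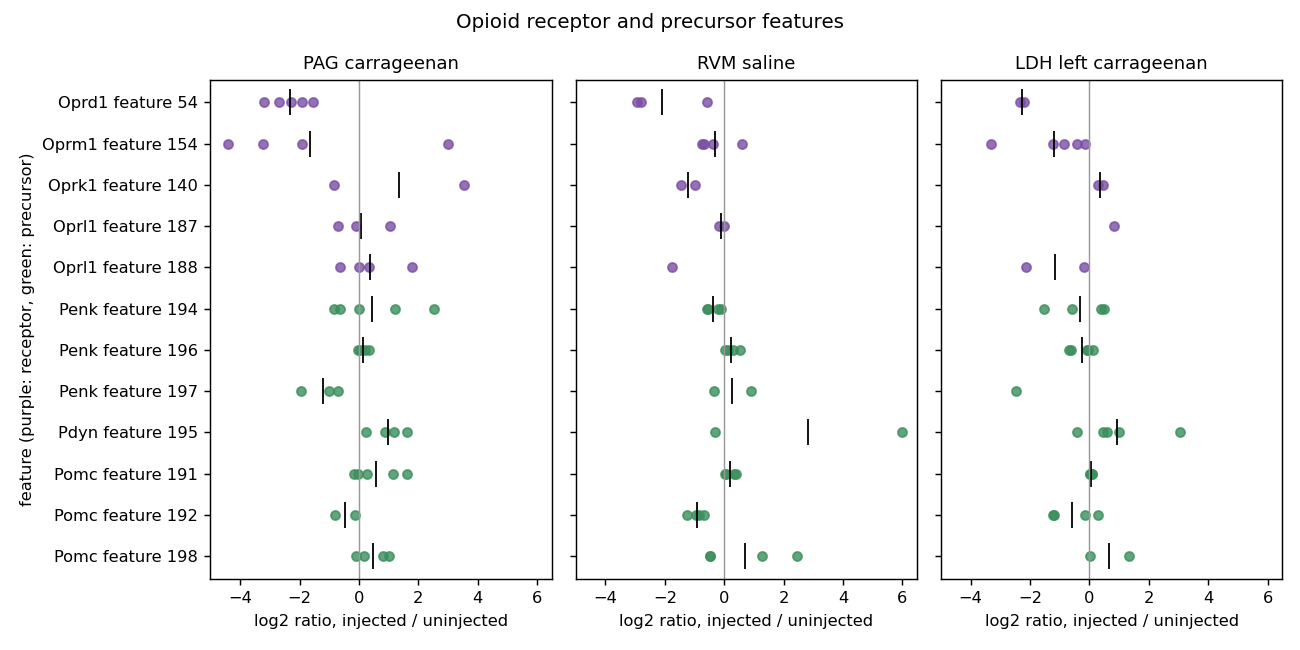
Log2 ratio of injected over uninjected signal (horizontal axis) for the 12 opioid receptor (purple) and precursor (green) features in PAG carrageenan, RVM saline and left LDH carrageenan, with 1 dot per array and a black bar at the mean. Oprd1 lies left of 0 on every dot in these 3 groups, whereas most other features lie on both sides.

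Oprk1 was measured on few arrays, at 3.541 and -0.838 in PAG carrageenan against 2.352 on 1 PAG saline array. It read -1.465 and -0.979 in RVM saline, and 0.292 and 0.444 in left LDH. In left LDH both of its values lay above 0, where all Oprd1 and Oprm1 values lay below 0. Oprl1, measured by features 187 and 188, had PAG carrageenan means of 0.08 ± 0.88 (SD, n = 3) and 0.38 ± 1.03 (n = 4), near 0 within their spread.

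In the other groups the opioid precursors showed no shared direction. In RVM saline 3 of 5 testable features of the other opioid genes had means above 0 and 2 below, against 68 of all 127 features above 0. Pomc feature 192 averaged -0.93 ± 0.24 (SD, n = 4; limma adjusted p = 0.074). Pomc features 191 and 198 averaged 0.21 ± 0.18 and 0.69 ± 1.44 (n = 4 each; limma adjusted p = 0.455 and 0.564), so the gene's features disagreed in sign. In left LDH 2 features of the other opioid genes were above 0 and 3 below, against 57 of all 92 above 0, with Pdyn at 0.93 ± 1.29 (n = 5; adjusted p = 0.521). In right LDH only Penk feature 194 was testable, at -0.56 ± 0.53 (n = 3; adjusted p = 0.468). In PAG saline 3 of 5 were above 0, against 46 of all 80 features tested there (0% passed, 10 at an unadjusted p below 0.05). In RVM carrageenan it was 1 of 2, against 40 of all 61 (0% passed, 4 at an unadjusted p below 0.05). Between PAG carrageenan and PAG saline, 4 of 5 were higher after carrageenan, against 46 of all 78 features. The median difference was 0.547 against 0.135 over all 78, and none passed.

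Other receptors that couple to the same inhibitory G proteins held 36 features of 23 genes. In PAG carrageenan 14 of their 26 testable features had means above 0 and 12 below, against 89 of all 155 features above 0. The median of the 26 was 0.09, against 0.10 over all 155, with no calls among the 26. Named by an unadjusted p below 0.05 were Gabbr1, a GABA-B receptor subunit, at -1.57 on feature 76 but 0.94 and 1.13 on features 35 and 38; the adrenergic receptor Adra2a, at -1.87 on feature 27 but 2.48 on feature 32; and the glutamate receptor Grm2, at -2.15 (adjusted p from 0.136 to 0.215). In RVM saline 14 of 23 were above 0 (68 of all 127), in left LDH 11 of 17 (57 of all 92) and in right LDH 5 of 6 (13 of all 31), with no calls in the list. The smallest adjusted p-values of the list in RVM saline were those of the glutamate receptors Grm8, at -2.09 ± 0.35 (SD, n = 3; limma adjusted p = 0.0654), and Grm4, at -2.90 ± 1.25 (n = 4; limma adjusted p = 0.0754). The cholecystokinin receptor Cckbr, the receptor of a peptide that opposes opioid analgesia, averaged 0.61 ± 1.60 in PAG carrageenan (SD, n = 4) and 0.67 ± 0.62 in left LDH (n = 5; limma adjusted p = 0.487). Its peptide's gene Cck averaged -1.01 ± 0.70 in RVM saline (n = 3; adjusted p = 0.242).

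**Figure D5:**
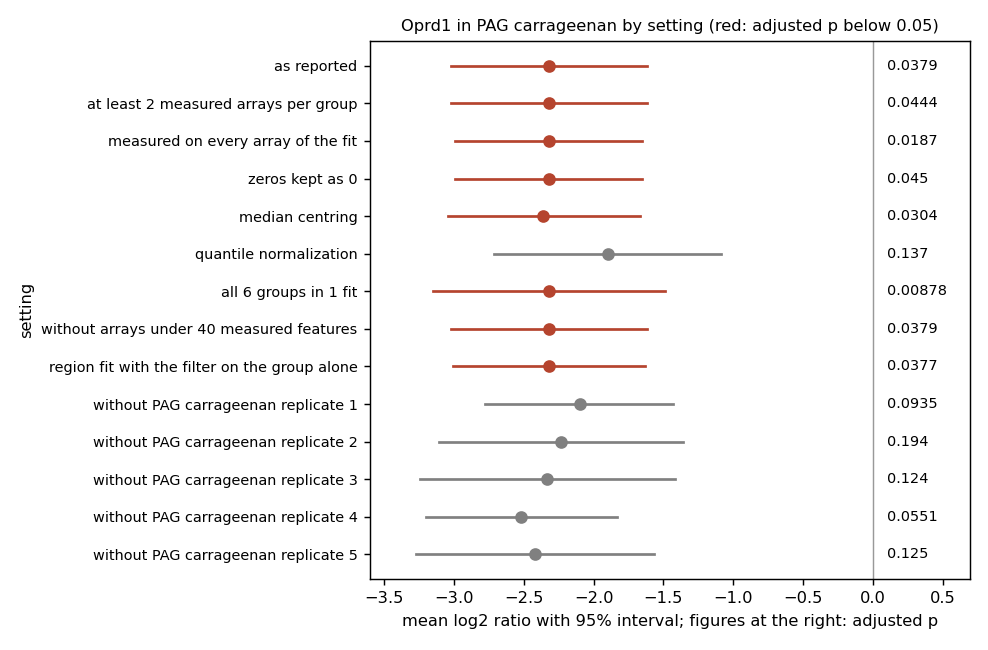
Mean log2 ratio of Oprd1 over the PAG carrageenan arrays with its 95% interval (horizontal axis) as reported and under 13 other settings (vertical axis), with the limma adjusted p printed at the right and red marking an adjusted p below 0.05. Every interval lies below 0, and the adjusted p is above 0.05 when any 1 array is left out or the arrays are quantile normalized.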

How the data were processed

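Total RNA was extracted with TRIzol, reverse transcribed and labelled with a 3DNA kit on custom 2-colour oligonucleotide arrays, per the labels' protocols. The authors' deposited table holds 1 log2 ratio per feature and array, with 202 features named and 26 unnamed here. Its log base, centring and direction are not stated: base 2 was inferred from the range (-13.245 to 10.459), and array medians between -0.061 and 0.083 show that each array is centred near 0. Scanning, filters, background correction and normalization are steps not given in the sources used here. Exact zeros made up 3566 (55.9%) of the 6384 deposited log2 values, against 9 entries of 0.001 and 14 of -0.001, and were therefore read as missing. The number of arrays limits the precision.

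Groups came from the labels. Values were used as deposited. limma 3.58.1 in R 4.3.3 tested each group's mean against 0 on its own arrays, or the difference of 2 groups on their arrays, for features measured on at least 3 arrays of each group, two-sided, with Benjamini-Hochberg adjustment over all features tested and a threshold of 0.05. Fitting each group alone matters: when a region's 2 groups had to measure a feature together, Oprd1 could not be tested in the PAG. Exact permutation tests (scipy 1.17.1) were two-sided. The scripts were tested on simulated data. Alternatives were other filters, zeros kept as 0, median centring, quantile normalization, fits over more groups, leaving out sparse arrays or each array in turn, and the array number as a block. The members, the lists and the fits were chosen with earlier results of these data known. Named were both receptors, features of the lists with an unadjusted p below 0.05 or else the 2 smallest p of a list, and the 3 features most alike to each receptor; list features past that rule are given in part. Other injection ages and adjuvant inflammation were not analysed here.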

Additional observations from a re-analysis of the deposited data

Results flagged for a closer look

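PAG saline array 5 measured 33 features, far from the 90 to 95 of the other 4 arrays of its group. It was the only outlier among 30 groups of values examined, and chance gives about 1 in 20. It measured neither receptor, so leaving it out could not change the count of 0 PAG saline arrays measuring Oprd1.

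In 3 comparisons every measured Oprd1 value of 1 group lay on the other side of 0 from every measured value of the other, and none of these differences was tested. Oprd1 was above 0 on the only RVM carrageenan array that measured it and below 0 on 3 RVM saline arrays, a difference of 2.39. It was below 0 on 2 left LDH arrays and above 0 on 1 right LDH array, a difference of -5.314. It was below 0 on 5 PAG carrageenan arrays and above 0 on 1 RVM carrageenan array, a difference of -2.599. Each of the 3 rests on a group with a single measured array. How many other features separate in these comparisons is not given here, so the separation cannot be called particular to Oprd1.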

How the results depend on the processing

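The Oprd1 mean in PAG carrageenan kept its sign in all settings. It passed in 7 of 8 other settings that keep all 5 arrays (adjusted p from 0.00878 to 0.137). It failed under quantile normalization (-1.90) and without any 1 array. Most of these passes are not separate checks. Of the settings that keep all 5 arrays, only median centring (-2.36, limma adjusted p = 0.0304) and quantile normalization changed the Oprd1 values. Leaving out sparse arrays removed no PAG carrageenan array and repeated the reported fit. The other passing settings kept the mean of -2.32 and changed only what was fitted or adjusted beside Oprd1. Oprd1 in RVM saline passed only with all 6 groups in 1 fit (-2.11, adjusted p = 0.042, other settings up to 0.454). The counts of passing features moved as follows. In PAG carrageenan against uninjected tissue (1 as reported) 0 passed after quantile normalization, 11 when 1 fit held all 6 groups, 11 of 78 with both PAG groups in 1 fit, where Oprd1 was not testable, 2 in that fit with the filter on the group alone (a setting chosen after seeing the data), and 0 without any 1 array. In RVM saline (1 as reported) 3 passed with features on every array, 3 under quantile normalization, 6 with all groups, 3 with both RVM groups, 6 with the filter on the group alone, and 0 to 1 without 1 array. In PAG saline 2 passed with features on every array and 1 with all groups. In RVM carrageenan 2 passed under quantile normalization and 1 in either fit of both RVM groups. Left LDH and right LDH each gave 0 to 1 without 1 array. With zeros kept as 0, 1 feature passed between the PAG groups, 4 between the RVM groups, 1 between PAG and RVM after carrageenan, 4 between them after saline, and 6 for the difference of the PAG and RVM effects (0 to 2 without 1 array). Between the PAG groups 1 passed with all groups in 1 fit. Between the RVM groups 1 passed when 2 measured arrays a group sufficed, and 0 to 1 without 1 array. The cause was not tested. Oprm1 between left and right LDH ran from -0.628 to 0.167 without 1 array, changing sign without left array 5 (adjusted p = 0.89), and with the array number as a replicate block (0.357, adjusted p = 0.706). The block gave 0 passing features in all 5 comparisons of 2 groups. Deviations of arrays with the same number correlated between -0.779 (over 7 features) and 0.375, and in no comparison were all above 0.1. This does not settle whether equal numbers mark the same animals, which is not known.

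Oprd1 and Oprm1 were each read by 1 feature, on 12 and 19 of 28 arrays, and no PAG saline array measured Oprd1. Several groups had 1 or 2 values, and exact tests with 3 to 5 arrays against 0 cannot go below 0.25 to 0.0625. The depth behind a ratio is unknown, since no channel signals were used.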
